A study of Homo sapiens with 48 samples.

Results

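Collagen and extracellular matrix genes were examined in the pancreatic cancer cell line L3.6pl, an established human line, for peaks of the NF-κB subunits RELA and RELB, the AP-1 subunit FOSL1 and the active histone mark H3K27ac. The 40 members were taken from a list of gene symbols, and all 40 were found among the 20033 protein-coding genes of the annotation on chromosomes 1 to 22, X and Y. They comprise 5 fibrillar collagens, 8 basement membrane components, 9 other collagens, 7 matrix glycoproteins, 3 enzymes of crosslinking or hyaluronan synthesis, 5 proteases and 3 protease inhibitors. The remaining 19993 protein-coding genes served as the background. A member was said to have a site when a peak lay within 50 kb of any of its annotated transcript start sites, measured from the summit of a narrow peak or from the nearest edge of a broad peak.

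RELA, RELB and H3K27ac were each profiled by ChIP-seq in vehicle-treated cells, after TNFα for 30 min or 6 h, and after TWEAK for 30 min or 6 h, and FOSL1 was profiled in vehicle-treated cells only. The 48 samples fall into 16 conditions of 3 replicates, all from the same cell line, and the labels do not give how long vehicle was applied. Replicates were pooled into 1 peak list per condition, and values therefore have no replicate error and no test. Peak names in the list of RELA after 30 min TNFα read both merged and replicate 1, and whether all 3 replicates entered it is not settled.

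The extracellular matrix is built from fibrillar collagens, which bear tension, and from basement membranes, thin sheets of collagen IV and laminins on which epithelial cells rest. Lysyl oxidases crosslink the fibers, matrix metalloproteinases and ADAM proteases cut matrix and cell surface proteins, and TIMPs inhibit these proteases. In pancreatic cancer a dense matrix surrounds the tumor cells, and fibroblasts are its main producers, although carcinoma cells also make basement membrane proteins. TNFα acts mainly through the canonical NF-κB pathway, in which RELA enters the nucleus within minutes, and TWEAK through the slower noncanonical pathway, in which RELB is activated. H3K27ac marks active promoters and enhancers.

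RELA was the main NF-κB subunit near these genes, as near the other protein-coding genes, and in both it was found mostly after TNFα. After 30 min TNFα, 23 of 40 members (57.5%, other genes 44.3%) had a RELA site. After 6 h TNFα, 16 members (40%, other genes 24.3%) had one. RELB sites lay near 8 members (20.0%, other genes 12.1%) after 6 h TWEAK. They lay near 4 members (10.0%, other genes 3.33%) after 6 h TNFα. The RELA and RELB peaks merged into 37 separate sites, which lay in reach of 27 members, and 13 members had none. The strongest RELA sites lay near LAMC1, which encodes the laminin γ1 chain, COL17A1, a transmembrane collagen of epithelial cells, and COL16A1, a collagen associated with the fibril surface.

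The sequences of 200 bp around the RELA summit of 30 min TNFα are shown for 6 members, to place the motifs at strong sites that hold an NF-κB match. They are the 6 members with the highest RELA fold enrichment whose strongest site held a match to the NF-κB consensus and overlapped no annotated UTR. Each window thus holds a match by selection. The strongest sites of SPARC (11.91), COL1A1 (11.74), ADAM17 (10.90), COL8A1 (9.23), COL4A6 (9.01) and COL4A2 (8.14) held no NF-κB match. They were passed over, although their folds exceeded that of LAMB1 (8.08). All are written 5′ to 3′ on the plus strand of hg38, and capitals mark matches to the NF-κB consensus or to the AP-1 motif (TGACTCA or TGAGTCA) on either strand.
LAMC1, chr1:183180860-183181059: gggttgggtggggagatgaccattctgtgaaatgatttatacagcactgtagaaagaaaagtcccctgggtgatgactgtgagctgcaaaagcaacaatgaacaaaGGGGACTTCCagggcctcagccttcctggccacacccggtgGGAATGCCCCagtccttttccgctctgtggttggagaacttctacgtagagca
COL17A1, chr10:104120910-104121109: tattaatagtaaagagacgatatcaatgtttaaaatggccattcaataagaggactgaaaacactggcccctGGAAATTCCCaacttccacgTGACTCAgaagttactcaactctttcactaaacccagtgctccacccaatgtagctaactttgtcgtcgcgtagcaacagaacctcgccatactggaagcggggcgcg
COL16A1, chr1:31666602-31666801: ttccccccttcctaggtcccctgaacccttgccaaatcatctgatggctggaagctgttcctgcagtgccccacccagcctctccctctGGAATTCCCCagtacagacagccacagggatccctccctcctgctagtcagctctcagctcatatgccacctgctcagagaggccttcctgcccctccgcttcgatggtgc
LAMA5, chr20:62376537-62376736: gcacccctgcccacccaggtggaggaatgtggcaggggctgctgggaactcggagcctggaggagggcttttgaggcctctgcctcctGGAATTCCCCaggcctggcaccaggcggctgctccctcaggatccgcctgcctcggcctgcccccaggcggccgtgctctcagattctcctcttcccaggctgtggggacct
LAMB1, chr7:107891682-107891881: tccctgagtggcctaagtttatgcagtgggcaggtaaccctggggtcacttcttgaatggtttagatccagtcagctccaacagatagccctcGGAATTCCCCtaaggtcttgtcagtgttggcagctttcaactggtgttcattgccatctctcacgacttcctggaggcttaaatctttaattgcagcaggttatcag
THBS1, chr15:39618537-39618736: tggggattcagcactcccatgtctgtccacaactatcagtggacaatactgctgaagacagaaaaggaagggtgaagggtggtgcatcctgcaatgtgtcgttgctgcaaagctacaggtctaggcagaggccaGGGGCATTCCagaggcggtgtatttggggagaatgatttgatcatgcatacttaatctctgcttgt

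The LAMC1 window holds 2 matches to the NF-κB consensus, and the COL17A1 window holds an NF-κB match followed by an AP-1 match, TGACTCA. The COL16A1, LAMA5 and LAMB1 windows share the identical match GGAATTCCCC. Of the 37 sites, 20 held an NF-κB match and 8 an AP-1 match within the 200 bp around the summit. After 30 min TNFα, 16 of 31 member sites held an NF-κB match (51.6%), beside 49.5% of the other RELA peaks outside tandem repeats, and 6 held an AP-1 match (19.4%, beside 15.0%). Of the 9 RELB sites after 6 h TWEAK, 8 held an NF-κB match (88.9%, beside 64.5%) and 4 an AP-1 match (44.4%, beside 30.1%).

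Beside all other protein-coding genes, the members had RELA sites in a higher share at both times of TNFα. After 30 min TNFα, 44.3% of the other genes had a RELA site, against 57.5% of the members. After 6 h TNFα it was 24.3% of the other genes, against 40% of the members. In vehicle, 2 members, LAMC1 and COL17A1, had a RELA site (5.00%, other genes 4.54%). After 30 min TWEAK, 3 members did, LAMC1, COL17A1 and MMP14 (7.50%, other genes 6.87%), and after 6 h TWEAK 0 members did (other genes 4.61%). Without TNFα, the RELA shares of the members thus lay near the background or below it.

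RELB was listed near 0 members in vehicle (other genes 2.70%), after 30 min TNFα (1.39%) and after 30 min TWEAK (1.24%). After 6 h TNFα, RELB sites lay near LAMC1, COL17A1, COL6A2 and HAS2 (10.0% of members, other genes 3.33%), but with a fold enrichment of at least 5 only COL6A2 was left (1 of 40 members, other genes 2.37%). After 6 h TWEAK, those same 4 members had RELB sites, as did COL16A1, LAMA5, SPARC and THBS1 (20.0%, other genes 12.1%). The plot of shares by list sets members and other genes side by side.

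**Figure D1:**
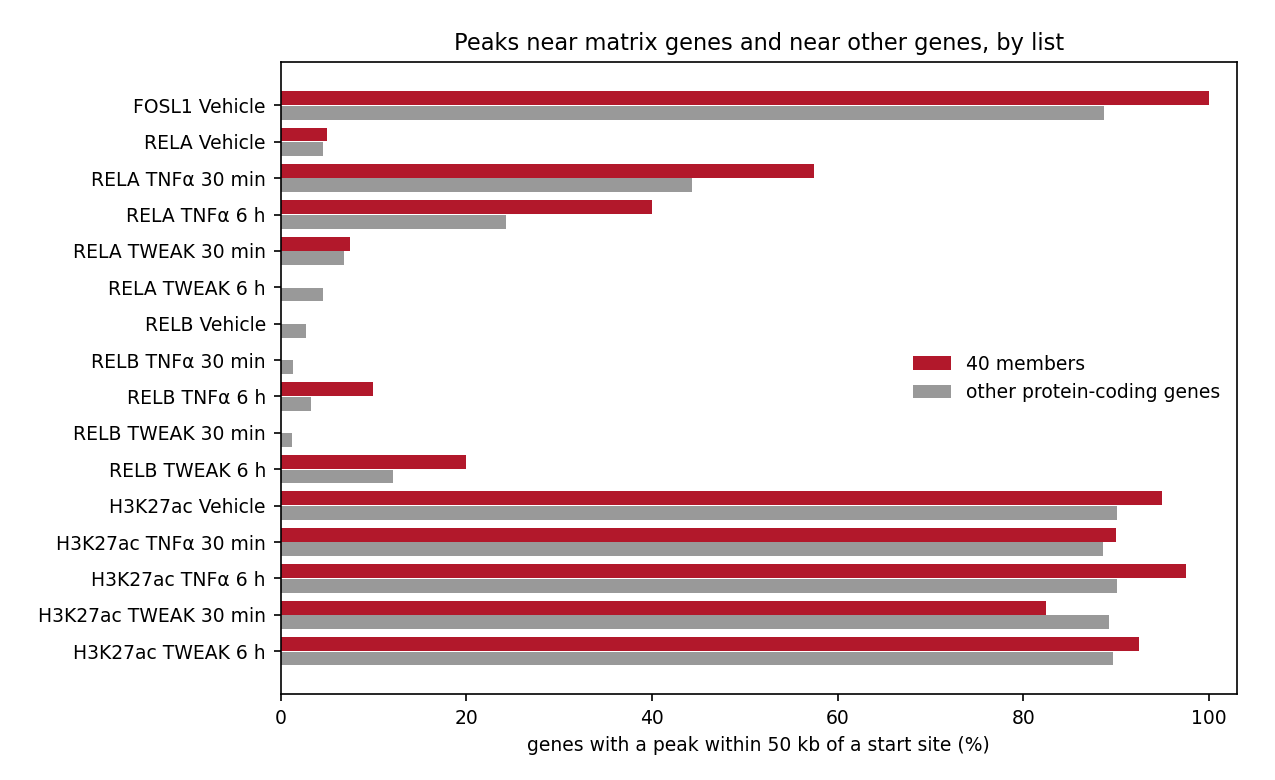
Share of the 40 members (red) and of the 19993 other protein-coding genes (grey) with a peak within 50 kb of a start site (x axis, %) in each of the 16 peak lists (y axis). In percentage points, the members exceed the other genes most after 6 h TNFα for RELA (40% against 24.3%) and have no RELB peak in vehicle or at 30 min of either treatment.

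The members are long genes with many annotated starts, and this sets part of the window. The median member had 9.50 start sites and a window of 155 kb, beside 5.00 start sites and 109 kb in the other genes. Per Mb of window, members held 4.75 RELA sites after 30 min TNFα, fewer than the 5.56 of the other genes. After 6 h TNFα they held 3.12 RELA sites per Mb, beside 2.46. Sites and windows shared by several genes were counted for each gene, in both groups. The 21 RELA sites counted for members after 6 h TNFα were thus 19 separate sites. For RELB the densities were 1.34 against 1.04 per Mb after 6 h TWEAK and 0.594 against 0.306 per Mb after 6 h TNFα. With a window of equal length around the 5′ end of each gene record, 16 members (40%) had a RELA site after 30 min TNFα, beside 38.6% of the other genes, and 13 members (32.5%) had one at 6 h, beside 20.5%. The higher share after 30 min TNFα was therefore not seen per length of window, whereas the higher share at 6 h was. When each peak was counted only for its nearest gene, which does not make windows equal, 18 members (45.0%) had RELA after 30 min TNFα, beside 23.2% of the other genes, and FOSL1 was likewise higher in members, at 95% beside 68.2%.

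Tandem repeats made up 26.2% to 94.6% of all peaks in the RELA and RELB lists, near genes or not, and none of the 37 member sites lay in one. Outside tandem repeats the member counts were therefore the same. The background was slightly lower, with 43.3% of the other genes for RELA after 30 min TNFα and 23.3% after 6 h TNFα. For RELB it was 2.57% after 6 h TNFα and 11.1% after 6 h TWEAK. Per Mb of window, the other genes held 5.56 RELA peaks after 30 min TNFα, and 5.36 outside tandem repeats. The RELB densities were 1.04 and 0.953 after 6 h TWEAK, and 0.306 and 0.234 after 6 h TNFα. Most peaks near the other genes in these lists thus also lay outside tandem repeats. Among 50 further matrix genes, such as nidogens, fibrillins, perlecan and prolyl hydroxylases, 29 (58.0%) had a RELA site after 30 min TNFα and 12 (24.0%) at 6 h. The share after 6 h TNFα in these genes was thus close to the background and below the 40% of the members. RELB sites after 6 h TWEAK lay near 9 of the 50 (18.0%).

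Most of these sites were not called in vehicle. A RELA peak that shared no base with a vehicle RELA peak lay near 22 members after 30 min TNFα (other genes 43.1%), 15 after 6 h TNFα (22.1%), 1 after 30 min TWEAK (3.82%) and 0 after 6 h TWEAK (1.97%). For RELB the counts were 0 after 30 min TNFα (0.390%), 4 after 6 h TNFα (1.81%), 0 after 30 min TWEAK (0.345%) and 8 after 6 h TWEAK (10.5%). The treated lists of an antibody were all set against the same vehicle list. The 1 member with a RELA site absent from vehicle after 30 min TWEAK was MMP14, a membrane-anchored metalloproteinase, and RELA was called at this site after 30 min TNFα as well.

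Of the 37 sites, 31 were called for RELA after 30 min TNFα, and 16 of those were called in no other RELA or RELB list. A further 8 were called for RELA at both times of TNFα and in no other list, and 3 for RELA after 6 h TNFα alone. Sites of RELA and RELB together numbered 8, and 1 site, 41146 bp downstream of the start of the hyaluronan synthase gene HAS2, was called for RELB alone. Of the 31 RELA sites at 30 min, 14 overlapped a RELA peak of 6 h TNFα (45.2%). This was so for 35.3% of the other RELA peaks outside tandem repeats and 45.2% of all others. A RELB peak of 6 h TWEAK overlapped 6 of the 31 (19.4%), beside 15.7% outside tandem repeats and 27.3% of all others. The median RELA fold enrichment of member sites after 30 min TNFα was 7.42, between 3.74 and 17.5, beside 6.20 for the other peaks outside tandem repeats. The heat map of all 37 sites shows these patterns.

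**Figure D2:**
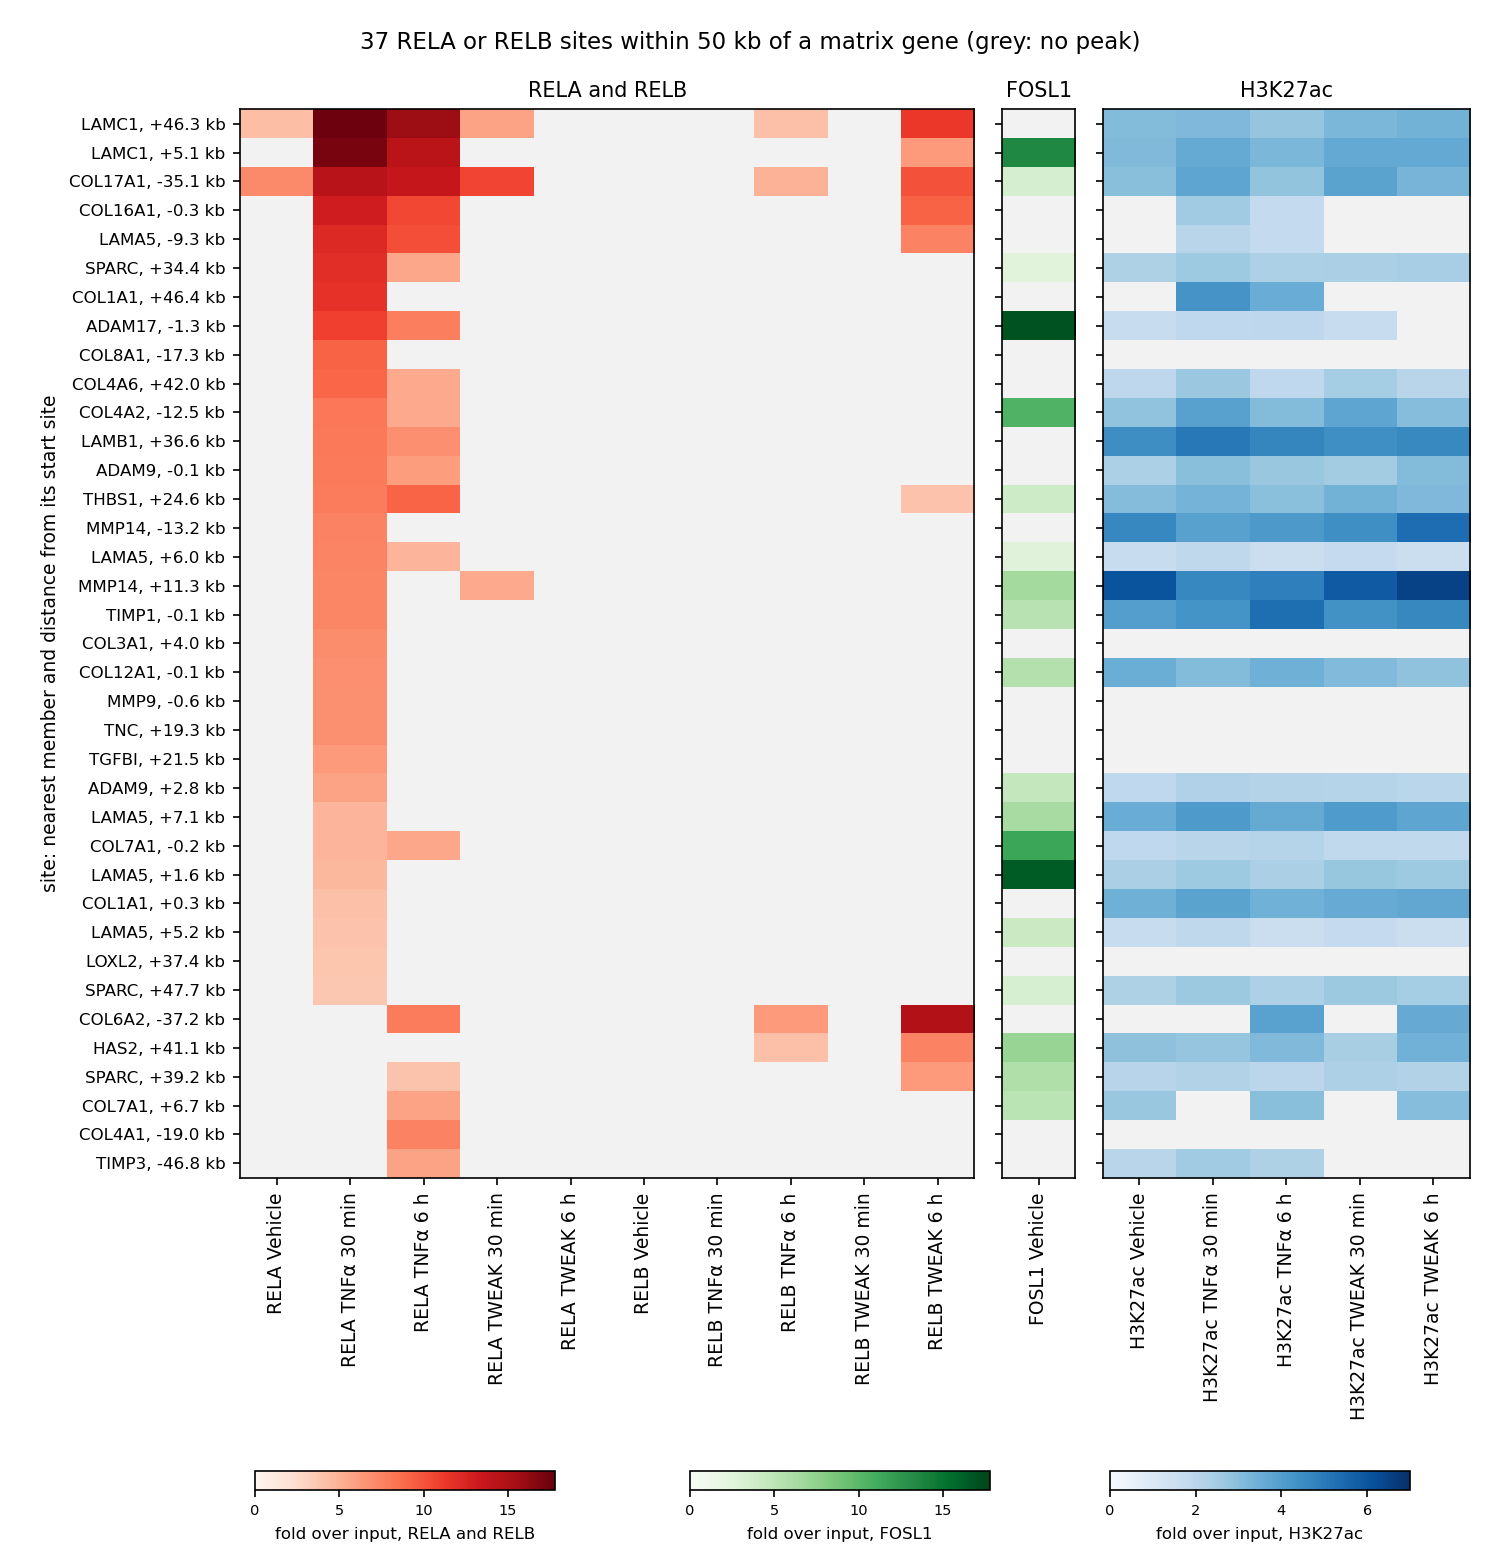
Fold enrichment over input (color) of the 37 RELA or RELB sites (rows, named by the nearest member and the distance of the summit from its nearest start site in kb) in the 10 RELA and RELB lists, the FOSL1 list and the 5 H3K27ac lists (columns), with grey where no peak was called. Rows are ordered by RELA fold enrichment after 30 min TNFα, from 17.46 near LAMC1 down to 3.74 near SPARC. Sites without a RELA peak at that time follow below, ordered by RELB fold enrichment after 6 h TWEAK. RELB color is confined to the 6 h columns.

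Most sites lay away from the promoters of the members themselves. By position, 11 sites lay within 1 kb of a protein-coding start site, 14 in introns and 12 between genes. Of the 31 member RELA sites after 30 min TNFα, 11 lay within 1 kb of a start site of any protein-coding gene (35.5%). This was a higher share than the 25.0% of the other RELA peaks outside tandem repeats. The nearest protein-coding gene was a member for 26 of the 37 sites. Only 7 sites lay within 1 kb of any annotated start of a member, and 4 within 1 kb of the 5′ end of a member's gene record, at COL7A1, COL12A1, MMP9 and TIMP1. The median distance from a summit to the nearest member start was 12503 bp, with 17 sites within 10 kb and 12 beyond 30 kb. Counts by the 50-kb window therefore name members whose sites often lie nearer to another gene.

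**Figure D3:**
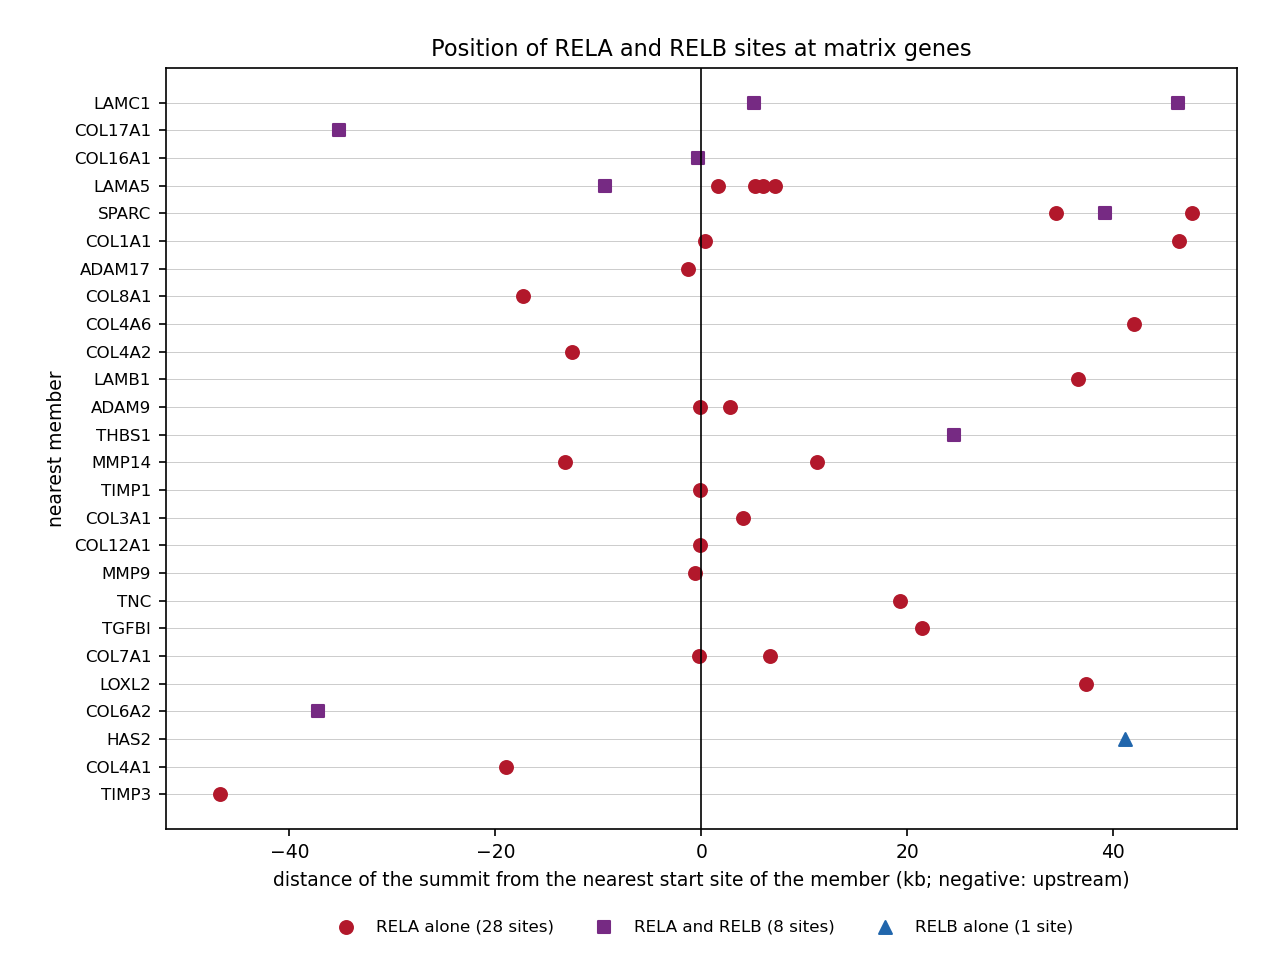
Distance of each RELA or RELB summit from the nearest annotated start site of the nearest member (x axis, kb, negative upstream), with 1 row per member and the symbol showing whether RELA alone (28 sites), RELA and RELB (8 sites) or RELB alone (1 site) was called. LAMA5 has the most sites, 5, and the sites called for both subunits lie at LAMC1, COL17A1, COL16A1, LAMA5, SPARC, THBS1 and COL6A2.

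Basement membrane genes had RELA sites in 6 of 8 members at 30 min and 7 of 8 after 6 h TNFα (other genes 44.3% and 24.3%). The collagen IV genes among them had windows of 201 to 311 kb, beside a median of 109 kb in the other genes. COL4A5 and COL4A6 were counted through the same site at both times. The strongest site of LAMC1 (chromosome 1, summit at 183180960) had a RELA fold enrichment over input of 4.22 in vehicle, 17.46 at 30 min and 15.81 after 6 h TNFα, and 5.71 after 30 min TWEAK, and was not called after 6 h TWEAK. RELB was called there after 6 h TNFα (4.11) and after 6 h TWEAK (11.36). This site was among the top 2.62% of RELA peaks outside tandem repeats after 30 min TNFα. It lay 46270 bp from the nearest LAMC1 start, which is a start inside the gene.

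A second LAMC1 site (183139801), in an intron, had a RELA fold of 17.14 and 14.28 after 30 min and 6 h TNFα and a RELB fold of 6.22 after 6 h TWEAK, on a FOSL1 peak of 13.53. It lay 116381 bp from the 5′ end of the gene.

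LAMA5, the laminin α5 chain gene, had 5 RELA sites after 30 min TNFα, the most of any member. The strongest, 9325 bp upstream of its start (chromosome 20, 62376637), had a RELA fold of 12.21 at 30 min and 10.20 after 6 h TNFα and a RELB fold of 7.49 after 6 h TWEAK, with no peak in the other 7 RELA and RELB lists. The other LAMA5 sites had RELA folds of 4.02 to 7.42 after 30 min TNFα. Of these, 3 lay in LAMA5 introns and 1 lay 27 bp from the start of ADRM1. LAMB1, the laminin β1 chain gene, had RELA at 8.08 and 6.82 after 30 min and 6 h TNFα in a site that lay 352 bp from the start of DLD and 36567 bp from the nearest LAMB1 start.

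The collagen IV genes lie in head-to-head pairs, COL4A1 with COL4A2 (start sites 101 bp apart) and COL4A5 with COL4A6 (341 bp apart), so that members of a pair share much of their windows. An intronic COL4A6 site (chromosome X, 108396406), also in reach of COL4A5, had RELA at 9.01 and 5.39 after 30 min and 6 h TNFα. An intronic COL4A2 site had RELA at 8.14 and 5.39 at the same times, on a FOSL1 peak of 10.44. An intronic COL4A1 site, also in reach of COL4A2, was called only after 6 h TNFα (7.54). COL18A1, whose product carries endostatin, was the 1 basement membrane member without a RELA or RELB site.

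Fibrillar collagen genes had RELA sites in 2 of 5 members, COL1A1 and COL3A1, after 30 min TNFα and in 0 at 6 h (other genes 44.3% and 24.3%). COL1A1, which encodes the main chain of type I collagen, had a weak RELA peak of 4.13 close to its start, 345 bp from an annotated start and 1786 bp from the 5′ end of the gene. Its stronger site (chromosome 17, 50140691; RELA fold 11.74 after 30 min TNFα) lay in an intron of PPP1R9B, 46431 bp from a COL1A1 start. An intronic COL3A1 site had RELA at 6.93 after 30 min TNFα. None of these 3 sites was called in another RELA or RELB list. COL1A2, COL5A1 and COL5A2 had no RELA or RELB site.

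Among the other collagens, 5 of 9 members had RELA after 30 min TNFα, 4 after 6 h TNFα and 3 had RELB after 6 h TWEAK. The shares of the other protein-coding genes were 44.3%, 24.3% and 12.1%. The COL17A1 site (chromosome 10, 104121010) had RELA at 7.14 in vehicle, 14.43 and 13.74 after 30 min and 6 h TNFα and 10.66 after 30 min TWEAK, and RELB at 4.93 after 6 h TNFα and 10.02 after 6 h TWEAK. It lay 35130 bp upstream of COL17A1 and 1048 bp from the start of SFR1. It and the LAMC1 site were the 2 member sites with RELA in vehicle.

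The COL16A1 site (chromosome 1, 31666702) had RELA at 13.05 and 10.52 after 30 min and 6 h TNFα and RELB at 9.20 after 6 h TWEAK. It lay 317 bp from an annotated start inside COL16A1, 37617 bp from the 5′ end of the gene. A site 17301 bp upstream of COL8A1 had RELA at 9.23 after 30 min TNFα alone. COL12A1, the gene of a collagen associated with fibrils, had RELA at 6.85 after 30 min TNFα, 334 bp from the 5′ end of the gene and on a FOSL1 peak of 5.60.

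COL6A2, which encodes a chain of the beaded collagen VI, had 1 site. The site (chromosome 21, 46060930), 37182 bp upstream, had RELB at 14.86 after 6 h TWEAK and 6.21 after 6 h TNFα, and RELA at 7.90 after 6 h TNFα but no RELA peak at 30 min. Its RELB fold was the highest of the 9 member sites after 6 h TWEAK, followed by LAMC1 at 11.36 and COL17A1 at 10.02. It was exceeded by 5.67% of the RELB peaks outside tandem repeats. The HAS2 site and a SPARC site also had RELB after 6 h TWEAK without RELA at 30 min. COL6A1, COL6A3 and COL13A1 had no RELA or RELB site.

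COL7A1, the anchoring fibril collagen of epithelia, and the gelatinase gene MMP9 had RELA sites at their own promoters, and their sequences are shown as examples picked after their values were seen. They are written as above.
COL7A1, chr3:48595424-48595623: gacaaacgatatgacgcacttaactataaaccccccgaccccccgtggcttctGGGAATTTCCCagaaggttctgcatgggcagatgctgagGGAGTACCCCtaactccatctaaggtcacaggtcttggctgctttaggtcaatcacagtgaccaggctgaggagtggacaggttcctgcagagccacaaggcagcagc
MMP9, chr20:46008231-46008430: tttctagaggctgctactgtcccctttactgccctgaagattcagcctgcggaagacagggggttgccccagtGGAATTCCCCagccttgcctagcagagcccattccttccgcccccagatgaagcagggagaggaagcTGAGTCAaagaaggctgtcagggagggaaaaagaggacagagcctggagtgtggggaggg

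The COL7A1 site, 195 bp upstream of the start, holds 3 NF-κB matches, of which the first 2 overlap on opposite strands. It had RELA at 4.75 and 5.50 after 30 min and 6 h TNFα, below the member medians of 7.42 and 6.82, on a FOSL1 peak of 11.49 and with H3K27ac in all 5 lists. The MMP9 site, 577 bp upstream of the start, holds the NF-κB match GGAATTCCCC and an AP-1 match, TGAGTCA. It had RELA at 6.81 after 30 min TNFα and no peak in the other 9 RELA and RELB lists, in the FOSL1 list or in any H3K27ac list within 500 bp.

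Of the 7 glycoprotein genes, 4 had RELA after 30 min TNFα (SPARC, THBS1, TNC and TGFBI), 2 after 6 h TNFα and 2 had RELB after 6 h TWEAK. The shares of the other protein-coding genes were 44.3%, 24.3% and 12.1%. SPARC, a collagen-binding matrix protein, had 3 sites 34429 to 47699 bp from its nearest start, of which 2 lay nearer to FAT2. The strongest had RELA at 11.91 and 5.54 after 30 min and 6 h TNFα, whereas another had RELB at 6.25 after 6 h TWEAK and RELA at 3.93 after 6 h TNFα. The THBS1 site had RELA at 7.88 and 9.15 after 30 min and 6 h TNFα and RELB at 4.01 after 6 h TWEAK, and lay 394 bp from the start of FSIP1. A site near the tenascin gene TNC had RELA at 6.77 after 30 min TNFα alone, as did a TGFBI site at 6.20. FN1, which encodes fibronectin, THBS2 and POSTN had no RELA or RELB site.

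In the crosslinking and hyaluronan group, HAS2 had RELB at 7.52 after 6 h TWEAK and 4.14 after 6 h TNFα without RELA, on a FOSL1 peak of 7.12. LOXL2 had a weak RELA peak of 3.85 after 30 min TNFα, in an intron of R3HCC1, and LOX had none.

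Proteases had RELA sites in 4 of 5 members after 30 min TNFα and 2 of 5 at 6 h, and RELB sites in 0. Among the other protein-coding genes, 44.3% and 24.3% had RELA at these times, and 12.1% had RELB after 6 h TWEAK. ADAM17, the sheddase that releases TNFα from the cell surface, had RELA at 10.90 and 7.65 after 30 min and 6 h TNFα, 3960 bp from the 5′ end of the gene and on a FOSL1 peak of 16.90. ADAM9 had RELA at 7.97 and 6.08 in 1 site and at 5.73 at 30 min alone in another. MMP14 had RELA at 7.44 in a site 89 bp from the start of SLC7A7. At a site 11271 bp downstream of its nearest start, MMP14 had RELA at 7.37 after 30 min TNFα and 5.38 after 30 min TWEAK. MMP2 had no RELA or RELB site.

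Among the inhibitors, TIMP1 had RELA at 7.31 after 30 min TNFα 79 bp upstream of its start, in no other RELA or RELB list. TIMP3 had RELA at 5.74 after 6 h TNFα in a SYN3 intron, 46778 bp upstream, and TIMP2 had no site.

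FOSL1 was listed near all 40 members in vehicle, with 1 to 14 peaks each and a median of 5.00, beside 88.7% and a median of 4 in the other genes. Outside tandem repeats 38 members had a FOSL1 peak, and 88.5% of the other genes. Per Mb of window the members held 31.6 FOSL1 peaks and the other genes 30.5. Within 1 kb of a start site FOSL1 was found at 20 members (50.0%), among them COL1A1, COL7A1, COL17A1, FN1, LAMC1 and TIMP1, which is the share of the other genes (50.1%). LAMA5 had the most peaks, 14, and COL4A2 had 11.

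Of the 31 RELA sites of members after 30 min TNFα, 16 lay on a FOSL1 peak (51.6%), beside 58.0% of the other RELA peaks, or 48.9% outside tandem repeats. Of the 9 RELB sites after 6 h TWEAK, 5 lay on FOSL1 (55.6%, beside 63.8% outside tandem repeats). Of these 9, 6 overlapped a RELA peak of 30 min TNFα (66.7%, beside 80.1% outside tandem repeats). The exceptions were the COL6A2, HAS2 and SPARC sites. The strongest member sites were mixed in this respect, since the LAMC1 site at 183180960 and the COL16A1 and LAMA5 sites had no FOSL1 peak, whereas the intronic LAMC1 and ADAM17 sites had among the highest FOSL1 folds.

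H3K27ac was listed within 50 kb of most members in every condition, as it was for the other genes. It was near 38 members in vehicle (other genes 90.1%), 36 after 30 min TNFα (88.6%), 39 after 6 h TNFα (90.1%), 33 after 30 min TWEAK (89.2%) and 37 after 6 h TWEAK (89.7%). Within 1 kb of a start site, H3K27ac was found at 31 members in vehicle (77.5%, other genes 66.8%), 27 after 30 min TNFα (64.9%), 30 after 6 h TNFα (66.6%), 26 after 30 min TWEAK (65.5%) and 27 after 6 h TWEAK (66.2%). The higher share of the members in vehicle depended on how a start was defined. It was 60% of members against 59.4% of the other genes at the 5′ end of the gene record alone, 57.5% against 60.8% with a peak over the start itself, and 65.0% against 64.7% with a q of at most 0.001. With a fold enrichment of at least 5 it was 0 members against 11.1%.

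By role, all 8 basement membrane members had H3K27ac at a start in vehicle, where 66.8% of the other protein-coding genes had it. So did 4 of 5 fibrillar collagens, 6 of 9 other collagens, 5 of 7 glycoproteins, 4 of 5 proteases and 2 of 3 inhibitors. No list had H3K27ac at a start of COL6A3, COL13A1, THBS2, POSTN, TIMP2 or MMP9. In the same vehicle list all 6 epithelial markers were acetylated at a start, and of 6 fibroblast markers PDGFRB and FAP were, but DCN, LUM, PDGFRA and THY1 were not.

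Start peaks of some members were called in vehicle or after treatment but not in both. COL5A1 had a peak at its start in vehicle and in no treated list, and this peak was the 0.249 kb of H3K27ac in its whole window. COL8A1 was without a start peak after 30 min TNFα and at both times of TWEAK, COL6A1 and COL18A1 at 30 min of both treatments, TNC at both times of TWEAK, and MMP2 at both times of TNFα and after 6 h TWEAK. COL18A1 was also without one after 6 h TNFα. Start peaks called after treatment and not in vehicle were those of COL1A2 after 30 min TNFα and of COL6A2 and HAS2 after 6 h TNFα. After 30 min TNFα, 5 of the 31 members with a start peak in vehicle were without it, beside 596 of 13346 other genes. After 6 h TNFα and after 30 min and 6 h TWEAK it was 3, 5 and 4 members, beside 233, 461 and 268 other genes. Gains in the same order of lists were 1, 2, 0 and 0 members, beside 230, 202, 211 and 167 other genes. Losses outnumbered gains in both groups. They were a larger part of the members in every treated list, on few genes and without a test. Gains were likewise a larger part of the members at both times of TNFα, and 0 members gained a start peak after TWEAK. Member start peaks were weak in vehicle, where 0 members against 11.1% of the other genes reached a fold enrichment of at least 5. A loss or gain of a call near the threshold is thus not shown to be a change in H3K27ac.

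The length of sequence under H3K27ac peaks within 50 kb was also compared. Its median over members was 5.74 kb in vehicle, 4.20 kb at 30 min and 5.99 kb after 6 h TNFα, and 3.99 kb at 30 min and 4.17 kb after 6 h TWEAK. The summed length relative to vehicle was 0.762, 1.03, 0.773 and 0.812 in this order of treatments, beside 0.849, 0.996, 0.876 and 0.867 for the other genes. More H3K27ac than in vehicle was found at 5 members after 30 min TNFα (12.5%, other genes 18.0%), 23 after 6 h TNFα (57.5%, other genes 43.7%), 8 after 30 min TWEAK (20.0%, other genes 19.9%) and 6 after 6 h TWEAK (15.0%, other genes 13.7%). The whole lists were also shorter in these conditions, with 0.813, 0.845 and 0.837 times the vehicle length after 30 min TNFα and after 30 min and 6 h TWEAK. The part of sequencing depth in these differences was not tested, since the depth of each sample is unknown.

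**Figure D4:**
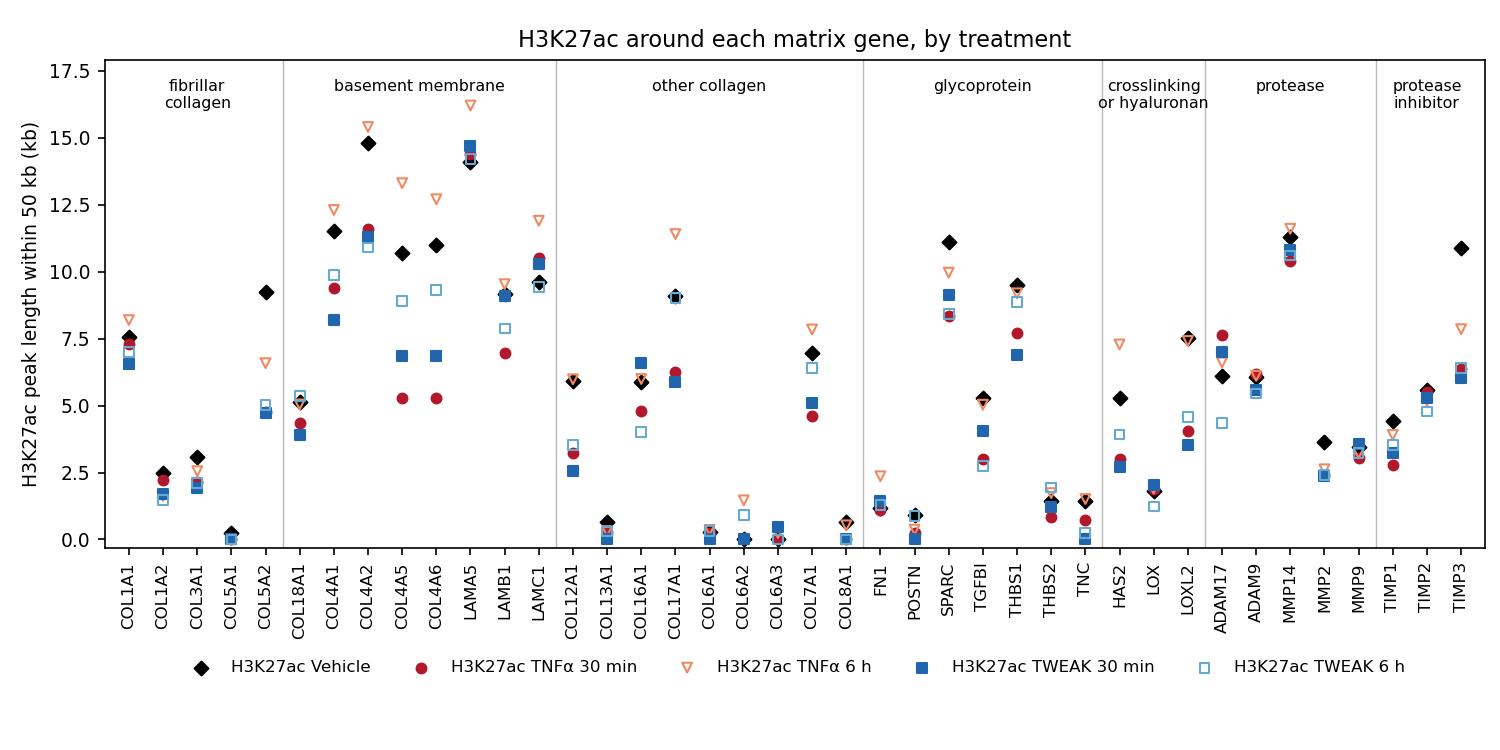
Length of sequence under H3K27ac peaks within 50 kb of the start sites (y axis, kb) for each of the 40 members (x axis, grouped by role) in the 5 H3K27ac lists (symbols). COL4A5 ranges from 5.30 kb at 30 min to 13.3 kb after 6 h TNFα, whereas COL5A1, COL6A1, COL6A3, COL8A1, COL13A1 and POSTN stay below 1 kb in every list.

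Single members spanned a wide range. COL4A5 had 10.7 kb in vehicle, 5.30 kb at 30 min and 13.3 kb after 6 h TNFα, and 6.86 kb and 8.91 kb after 30 min and 6 h TWEAK. COL4A6, with which it shares much of its window, had 5.30 to 12.7 kb. LAMC1 had 9.60 kb in vehicle, 10.5 kb and 11.9 kb after TNFα and 10.3 kb and 9.42 kb after TWEAK. COL17A1 had 9.10 kb in vehicle, 6.25 kb and 11.4 kb after TNFα and 5.88 kb and 9.01 kb after TWEAK. HAS2 had 5.27 kb in vehicle, 3.02 kb and 7.28 kb after TNFα and 2.70 kb and 3.92 kb after TWEAK. TIMP3 was lower in every treated list, with 6.03 to 7.85 kb against 10.9 kb in vehicle, and so was COL5A2, with 4.74 to 6.58 kb against 9.23 kb. FN1 had 1.18 kb in vehicle and 2.36 kb after 6 h TNFα, the highest ratio of any member, 2.00.

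At the 37 RELA and RELB sites themselves, H3K27ac lay within 500 bp of 26 sites in vehicle, 28 at 30 min and 30 after 6 h TNFα, and 24 and 25 after 30 min and 6 h TWEAK. At 3 sites H3K27ac was called at both times of TNFα but neither in vehicle nor after TWEAK. These were the COL16A1 site (highest H3K27ac fold 2.57 at 30 min and 1.78 after 6 h TNFα), the LAMA5 site 9325 bp upstream of the start (2.05 and 1.80) and the COL1A1 site in PPP1R9B (4.27 and 3.54). All 3 had RELA folds over 11 after 30 min TNFα and none lay on FOSL1. The COL16A1 and LAMA5 sites had RELB after 6 h TWEAK, and no H3K27ac peak was called there at that time.

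The COL6A2 site differed from these in time, since H3K27ac was called there after 6 h TNFα (3.87) and after 6 h TWEAK (3.59), as RELB was, but neither in vehicle nor at 30 min. Conversely, H3K27ac called in vehicle was absent at 30 min of both treatments from the COL7A1 site in PFKFB4, at both times of TWEAK from the TIMP3 site and after 6 h TWEAK from the ADAM17 site. At 7 sites, those of COL3A1, COL8A1, TGFBI, LOXL2, TNC, MMP9 and COL4A1, no H3K27ac peak was called in any list. Of RELA sites after 30 min TNFα outside tandem repeats, 71.0% of the member sites and 63.1% of the others had H3K27ac in vehicle, and 80.6% and 74.2% had it after 30 min TNFα.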

How the data were processed

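The 48 ChIP-seq samples were grouped into 16 conditions by their titles. Reads were mapped by the authors (Bowtie2 2.5.0, hg38, with SAMtools 1.18 and deepTools 3.3.2 also named), and peaks were called with MACS2 (version not given in the sources used here) against input at a stated cutoff of 0.05 and with no shifting model. The 16 deposited lists, 1 per condition on pooled replicates, hold 11 narrow and 5 broad (H3K27ac) peak sets. RELA was precipitated with protein G beads and the other antibodies with protein A beads. The deposited fold enrichment is the authors' ratio of ChIP over input, and the deposited −log10 q-value is their significance, which reaches down to 1.31 in narrow and 1.01 in broad lists. The broad H3K27ac lists thus hold peaks that miss the stated cutoff, and the cutoff used for them is not settled. Depth per sample is unknown, so no interval is given.

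GENCODE 44 start sites of the autosomes, X and Y were matched to peaks with own code (Python 3.11.15, numpy 2.4.6, pysam 0.24.0), which was tested on simulated data. An overlap needs 1 bp. A peak was placed in a tandem repeat when at least 0.4 of the 1000 bp around its summit matched itself at a shift of 1 to 400 bp. Peaks of RELA or RELB that overlapped were merged into sites, and the summit was taken from RELA after 30 min TNFα where called. The NF-κB consensus was searched by its usual form, with ambiguous positions, on both strands. No test was run, since genes and peaks are not replicates. Members are described beside the other protein-coding genes. The members, lists and alternatives were chosen with earlier results of these data known. Sites were named in the order of their RELA fold enrichment after 30 min TNFα, at most 20 members in full, and those of COL6A2, HAS2, COL7A1, TGFBI, LOXL2, COL4A1 and TIMP3 were given after their values were seen.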

Additional observations from a re-analysis of the deposited data

How the results depend on the processing

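No paired analysis was possible because each condition has 1 pooled peak list, and for the same reason no replicate could be left out. Of 180 alternative values, 144 stayed within 1.5 times the reported value and 36 moved further. Within 10 kb, members with RELA numbered 0 in vehicle, 11 and 6 after 30 min and 6 h TNFα (other genes 21.4% and 10.1%) and 0 after 30 min TWEAK, and members with RELB 0 after 6 h TNFα and 3 after 6 h TWEAK (4.49%), with the same counts (11, 6, 0, 0 and 3) for sites absent from vehicle. Within 100 kb, the counts were 5 and 2 for RELA after 30 min and 6 h TWEAK (other genes 11.3% and 7.76%), and for RELB 1 in vehicle (4.58%), 1 after 30 min TNFα (2.40%) and 2 after 30 min TWEAK (2.09%). With the 5′ end of the gene alone or a q of at most 0.001, RELA in vehicle had 1 member (3.81% and 4.42%). Counting each peak for its nearest gene gave 0 for RELA in vehicle (1.95%), 1 after 30 min TWEAK (2.87%), and for RELB 2 after 6 h TNFα (1.60%) and 5 after 6 h TWEAK (5.74%). A fold enrichment of at least 5 left 1 member for RELA in vehicle (4.08%), 1 for RELB after 6 h TNFα (2.37%, or 0.960% for sites absent from vehicle, also 1 member), and 25.0% of RELA sites on FOSL1 (other sites 38.6%). For H3K27ac it left 7 members in vehicle (17.5%, other genes 30.0%), 7 and 6 after 30 min and 6 h TNFα (17.5% and 15.0%, other genes 29.3% and 27.1%) and 10 and 9 after 30 min and 6 h TWEAK (25.0% and 22.5%, other genes 28.9% and 37.2%), and at start sites 0, 0, 1, 0 and 1 in this order (other genes 11.1%, 11.3%, 9.82%, 11.3% and 14.9%). At this threshold the members thus lay below the other genes for H3K27ac in all 5 lists, both within 50 kb and at start sites. Since the depth of each library is unknown, a site that was not called is not shown to be absent.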
